A study of Mus musculus with 15 samples.

Results

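The transcripts of 10 genes that serve the defence of the gut epithelium were followed in the intestine of mouse embryos. The genes were Reg3a, Reg3b, Reg3g, Reg1, Lyz1, Retnlb, Duox2, Duoxa2, Nos2 and Pigr, chosen by name for their function, and their rows were found by Entrez ID among the 36528 gene IDs of every library. RNA-seq of E16.5 intestine (E16.5 is the embryonic day) gave 15 libraries, 5 for each of 3 genotypes. The first genotype was a knockin of Casp8 C362A, in which the active-site cysteine of the protease caspase-8 is alanine (C362A), the second lacked Casp8 (knockout), and the third had unaltered Casp8 (wildtype). All 15 samples, wildtype included, also lacked Mlkl, the executor of necroptosis. The labels describe the primary tissue as small intestine and mark every C362A sample as inflamed and every other sample as normal. They give no strain, sex, litter or Cre driver and do not say whether a library came from 1 embryo, so p-values measure only the spread between these libraries.

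The epithelium of the gut keeps bacteria away from its surface with secreted lectins and enzymes, with reactive oxygen and nitrogen species made at or near the cell surface, and with antibody carried across the cell. In adult mice many of these genes are switched on by bacteria and by cytokines such as IL-22, and Paneth cells, the main source of lysozyme in the small intestine, mature only after birth. A fetal intestine has met neither bacteria nor diet, so the embryo shows which of these genes are transcribed before that contact.

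The genes include 4 Reg-family lectins that lie together on chromosome 6. Their promoters are shown because these neighbours had unlike levels in the fetal gut. Each sequence runs from 250 bases before to 50 bases after the RefSeq start site on GRCm38.p6, and capitals mark letters that match one of 6 searched motifs on either strand. The windows are chr6:78370635-78370934 for Reg3b (plus strand), chr6:78468825-78469124 for Reg3g (minus strand), chr6:78425733-78426032 for Reg1 (plus strand) and chr6:78380459-78380758 for Reg3a (plus strand).
Reg3b: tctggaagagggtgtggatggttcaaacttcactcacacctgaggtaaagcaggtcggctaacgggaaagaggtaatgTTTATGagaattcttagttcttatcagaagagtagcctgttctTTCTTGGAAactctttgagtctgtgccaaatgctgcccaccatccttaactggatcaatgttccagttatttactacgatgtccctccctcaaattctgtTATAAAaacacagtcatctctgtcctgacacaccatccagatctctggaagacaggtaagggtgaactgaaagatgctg
Reg3g: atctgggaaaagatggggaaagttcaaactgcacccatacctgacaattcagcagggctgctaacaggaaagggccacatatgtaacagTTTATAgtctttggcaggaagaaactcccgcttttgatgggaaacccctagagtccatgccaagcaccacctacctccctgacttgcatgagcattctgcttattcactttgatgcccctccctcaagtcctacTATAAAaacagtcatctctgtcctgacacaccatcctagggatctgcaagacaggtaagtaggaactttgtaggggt
Reg1: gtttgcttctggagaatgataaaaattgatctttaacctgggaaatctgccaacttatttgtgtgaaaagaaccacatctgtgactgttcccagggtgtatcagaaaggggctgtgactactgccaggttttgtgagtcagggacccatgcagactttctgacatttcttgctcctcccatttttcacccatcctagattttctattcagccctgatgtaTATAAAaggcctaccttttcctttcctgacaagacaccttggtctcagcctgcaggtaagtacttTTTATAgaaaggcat
Reg3a: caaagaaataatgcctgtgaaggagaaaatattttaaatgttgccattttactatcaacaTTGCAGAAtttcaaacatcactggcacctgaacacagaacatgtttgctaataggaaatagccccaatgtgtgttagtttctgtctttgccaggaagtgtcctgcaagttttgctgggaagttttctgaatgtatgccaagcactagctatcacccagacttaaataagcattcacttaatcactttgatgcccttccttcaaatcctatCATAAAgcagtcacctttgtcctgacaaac

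The TATA box letters TATAAA began 29 bases before the start of Reg3b, 27 before that of Reg3g and 30 before that of Reg1. They were not in the Reg3a window on either strand, which had CATAAA starting 21 bases into the transcript. This CATAAA and the TATAAA of Reg3b and Reg3g were each followed, after a short gap, by the letters tgtcctgaca. The Reg3a window is thus shifted against those of Reg3b and Reg3g. TATAAA was present on either strand in 14.2% of 27025 RefSeq promoters of the same length. The STAT letters TTCNNNGAA, found in 8.47% of those promoters, matched once in Reg3b as TTCTTGGAA, 129 bases before the start. The CDX letters TTTATG (12.1% of promoters) matched in Reg3b, 172 bases before the start. On the other strand they also matched the CATAAA of Reg3a, inside the transcript. The C/EBP-like letters TTGCNNAA (10.8%) matched once in Reg3a. The interferon response core, GAAA and GAAA with 2 bases of any kind between them (3.49% of promoters), and the GATA letters AGATAA (11.4%) were in none of the 4 windows. The Reg3b and Reg3g windows were 68.6% identical over their alignment, against 46.0% to 52.4% for the other 5 pairs. Columns with gaps were counted, and the Reg3a window is shifted, so the pairs with Reg3a are not on the same footing. A match is a description of letters, not a binding site. Of the other members, Duoxa2 had TATAAA 30 bases before its start, Pigr had the STAT letters as TTCCTGGAA starting 40 bases into the transcript, and Lyz1 had the C/EBP-like letters. Duox2 had no match, but its window (chr2:122298178-122298477, minus strand) lies inside the gene, whose outer end is at 122298740. The stretch before that end was therefore not searched for Duox2. Promoters of Retnlb and Nos2 were not analysed here.

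Depth was even, and the libraries held 31896399 to 38532127 counts. Casp8 stood at 69.9 ± 3.41 CPM (counts per 1e+06 counts of the library) in C362A, 14.4 ± 1.65 CPM in knockout libraries and 70.1 ± 5.97 CPM in wildtype (SD, n = 5 each), and Mlkl at 0.389 ± 0.261, 0.521 ± 0.119 and 0.506 ± 0.179 CPM in the same groups. Counts over a whole gene do not show the substitution. All 14 epithelium markers were detected, with summed levels of 6541 to 7615 CPM in C362A libraries, 6718 to 8374 CPM in knockout libraries and 6554 to 8960 CPM in wildtype. The 15 enterocyte markers summed to 7754 to 17464 CPM in C362A libraries, below every knockout library (18239 to 21938 CPM), while wildtype spread from 10884 to 33881 CPM. There were 3 libraries that stood apart. Wildtype replicate 4 had the enterocyte sum of 33881 CPM, where the next highest library had 22740 CPM. C362A replicate 4 had a summed squamous epithelium level of 272 CPM, against 19.3 to 31.0 CPM in the other 14, and leaving out C362A replicate 5 moved the number of genes called between C362A and wildtype among all tested to 1807, against 15 with it.

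Of the 10 genes, 6 could be measured before birth, 1 was near the floor and 3 were too low to measure. Measured means kept by the count filter of the test with a median of at least 30 reads per library, and Reg3b, Reg3g, Reg1, Lyz1, Nos2 and Pigr met it. Duox2 was kept by the filter at a median of 12 reads. Reg3a, Retnlb and Duoxa2 were not kept. Had the filter been 1 CPM in 5 libraries, Duox2 would have joined them, which makes 4.

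**Figure D1:**
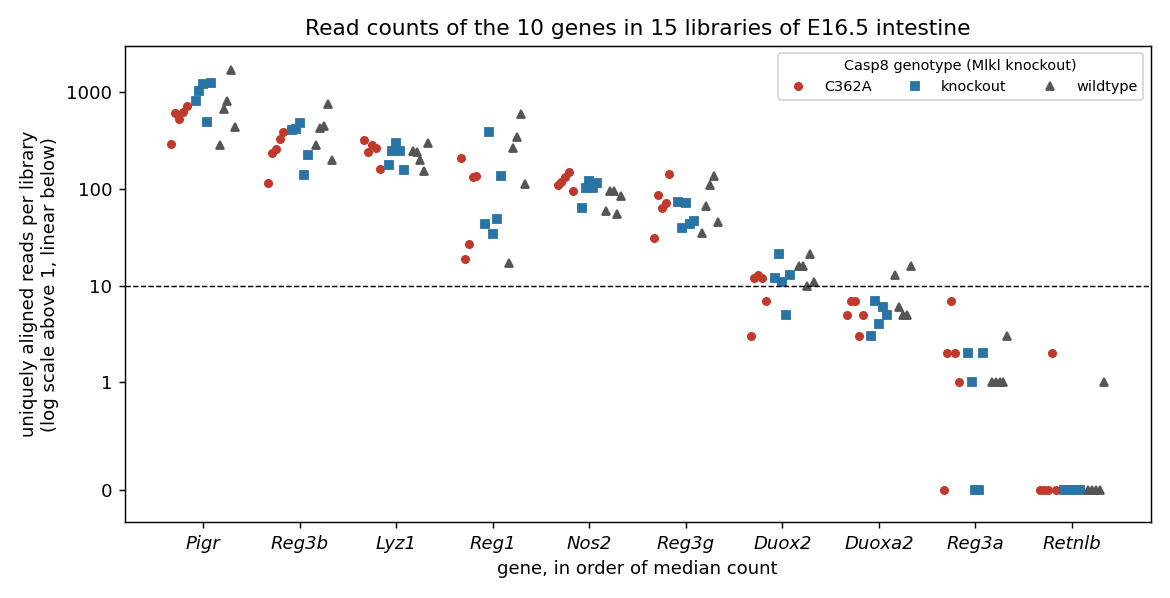
Uniquely aligned reads of the 10 genes in each library (log axis above 1, linear below), with C362A as circles, knockout as squares and wildtype as triangles and a dashed line at 10 reads. Pigr, Reg3b, Lyz1, Reg1, Nos2 and Reg3g lie above the line in all 15 libraries, Duox2 lies on both sides of it, Duoxa2 reaches it in 2 libraries, and Reg3a and Retnlb never do.

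Compared per length of transcript, as deposited RPKM (reads scaled by transcript length and library depth), the levels over 15 libraries fell into 3 tiers. Reg3b had the highest median at 12.2 RPKM, followed by Lyz1 at 5.21, Pigr at 4.67, Reg1 at 4.42 and Reg3g at 2.38 RPKM. The second tier was Nos2 alone at a median of 0.633 RPKM. The third held Duoxa2 at 0.1005, Duox2 at 0.0539, Reg3a at 0.0347 and Retnlb at 0 RPKM. Between neighbours in this order the ranges over libraries overlapped except between Reg3g and Nos2 and between Nos2 and Duoxa2, so the order within a tier was not fixed. Lyz1 lay above Pigr in 8 of 15 libraries and Pigr above Reg1 in 8. Other neighbours kept their order more often: Reg3b lay above Lyz1 in 13 of 15 libraries and Duoxa2 above Duox2 in 12. Among genes with a read, the median level of Reg3b stood at percentile 74.0 and that of Nos2 at percentile 34.7.

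Reg3b and Reg3g encode secreted C-type lectins that act on gut bacteria in the adult, and both were detected in every embryo library. Reg3b had 3.58, 6.38, 7.78, 9.50 and 11.5 CPM in the C362A libraries, 11.4, 11.3, 12.8, 4.30 and 5.78 CPM in the knockout libraries, and 8.18, 11.8, 13.2, 24.7 and 5.36 CPM in the wildtype libraries. The 3 groups overlapped, and the highest value belonged to wildtype replicate 4. The log2 fold change was -0.70 for C362A against wildtype (SE 0.42, 95% interval -1.60 to 0.20, adjusted p = 0.397), -0.47 for knockout against wildtype (SE 0.42, adjusted p = 1.0) and -0.23 for C362A against knockout (SE 0.42, adjusted p = 0.814), by the quasi-likelihood test of edgeR with p-values adjusted after Benjamini-Hochberg over 18370 genes. None passed. Without wildtype replicate 4 the values against wildtype were -0.31 for C362A and -0.075 for knockout, and C362A against knockout ranged from -0.42 without C362A replicate 5 to -0.053 without C362A replicate 1. Because these are whole tissues, fewer cells of a type and less RNA per cell cannot be told apart for any of the genes.

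Reg3g, which in mice acts on Gram-positive bacteria, was lower and as variable. It had 0.965, 2.33, 1.89, 2.08 and 4.29 CPM in C362A libraries, 2.05, 1.06, 1.91, 1.34 and 1.22 CPM in knockout libraries, and 1.01, 1.84, 3.30, 4.41 and 1.20 CPM in wildtype. Levels above 3 CPM were seen in C362A replicate 5 and wildtype replicates 3 and 4, and the 3 groups overlapped. The log2 fold change was -0.019 for C362A against wildtype (95% interval -0.88 to 0.84), -0.63 for knockout against wildtype (-1.50 to 0.25) and 0.61 for C362A against knockout (-0.26 to 1.48). None passed (edgeR adjusted p = 0.986, 1.0 and 0.492). The first value has no stable sign: it was 0.021 with library totals as the scale and 0.33 without wildtype replicate 4. Without that library knockout against wildtype was -0.27, and C362A against knockout was 0.26 without C362A replicate 5.

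Reg1, a Reg-family gene that is abundant in the adult exocrine pancreas, varied more than any other measured member. It had 6.51, 0.514, 0.811, 3.85 and 4.08 CPM in C362A libraries, 1.21, 10.5, 0.901, 1.53 and 3.51 CPM in knockout libraries, and 0.492, 7.24, 10.2, 19.4 and 3.01 CPM in wildtype. Its highest level was 39.4 times its lowest, against 6.89 times for Reg3b and Pigr, 4.57 for Reg3g, 2.55 for Nos2 and 2.44 for Lyz1, and each genotype held both low and high libraries. The log2 fold change was -1.36 for C362A against wildtype (SE 0.92, 95% interval -3.35 to 0.63), -1.18 for knockout against wildtype (SE 0.91, -3.15 to 0.79) and -0.17 for C362A against knockout (SE 0.93, -2.17 to 1.82). None passed (edgeR adjusted p = 0.453, 1.0 and 0.945), and the intervals leave room for changes of several fold. Without wildtype replicate 4 the values against wildtype were -0.74 for C362A and -0.56 for knockout. Without knockout replicate 2 knockout against wildtype was -2.16. C362A against knockout was 0.81 without knockout replicate 2 and -0.62 without C362A replicate 1.

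Reg3a, the fourth Reg lectin of the cluster, was too low to measure. It had 0, 2, 7, 2 and 1 reads in the C362A libraries, 2, 1, 0, 0 and 2 reads in the knockout libraries, and 1, 1, 1, 1 and 3 reads in the wildtype libraries. Over the 15 libraries it had 24 reads. Each of its libraries with 0 reads allows up to 3 reads, or 0.0795 to 0.0935 CPM depending on depth. Reg3b and Reg3g, in the same cluster, had at least 115 and 31 reads in every library.

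Lyz1, the lysozyme of Paneth cells, was the steadiest of the measured genes. It had 10.02, 6.55, 8.48, 7.64 and 4.79 CPM in C362A libraries, 4.999, 6.77, 7.85, 7.64 and 4.11 CPM in knockout libraries, and 7.08, 6.58, 5.95, 5.03 and 7.99 CPM in wildtype. The groups overlapped, and the coefficient of variation over 15 libraries was 23.6%, against 26.8% for Nos2 and 52.7% for Reg3b. The log2 fold change was 0.20 for C362A against wildtype (SE 0.20, 95% interval -0.23 to 0.62), -0.060 for knockout against wildtype (SE 0.20, -0.49 to 0.37) and 0.26 for C362A against knockout (SE 0.20, -0.17 to 0.68), none of which passed (edgeR adjusted p = 0.622, 1.0 and 0.555). A difference of more than 1 on the log2 scale lies outside all 3 intervals.

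Lyz1 has a close relative, Lyz2, the lysozyme of macrophages and other myeloid cells, which lies beside it on chromosome 10 (Lyz1 at chr10:117287795-117292868). Of all 50-base windows in Lyz1 transcripts, the length of a read, 16.1% are also found in Lyz2, and reads from those windows cannot be assigned to 1 gene by unique alignment. Lyz2 averaged 50.6 ± 25.9 CPM in C362A libraries, 32.9 ± 8.19 CPM in knockout libraries and 25.3 ± 2.58 CPM in wildtype (SD, n = 5 each). All 5 C362A libraries lay above all 5 wildtype libraries for Lyz2 (log2 fold change 1.001, SE 0.28), but it did not pass (edgeR adjusted p = 0.285), and Lyz1 did not share that separation.

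Retnlb, which encodes a resistin-like protein secreted by goblet cells, was not detectable at this depth. It had 0, 0, 0, 2 and 0 reads in C362A, 0 in each knockout library, and 0, 0, 0, 0 and 1 in wildtype. The 13 libraries at 0 allow up to 3 reads each. Goblet cells themselves were represented: the 10 goblet markers summed to 709 to 1317 CPM in C362A libraries, 713 to 1193 CPM in knockout libraries and 571 to 1726 CPM in wildtype.

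**Figure D2:**
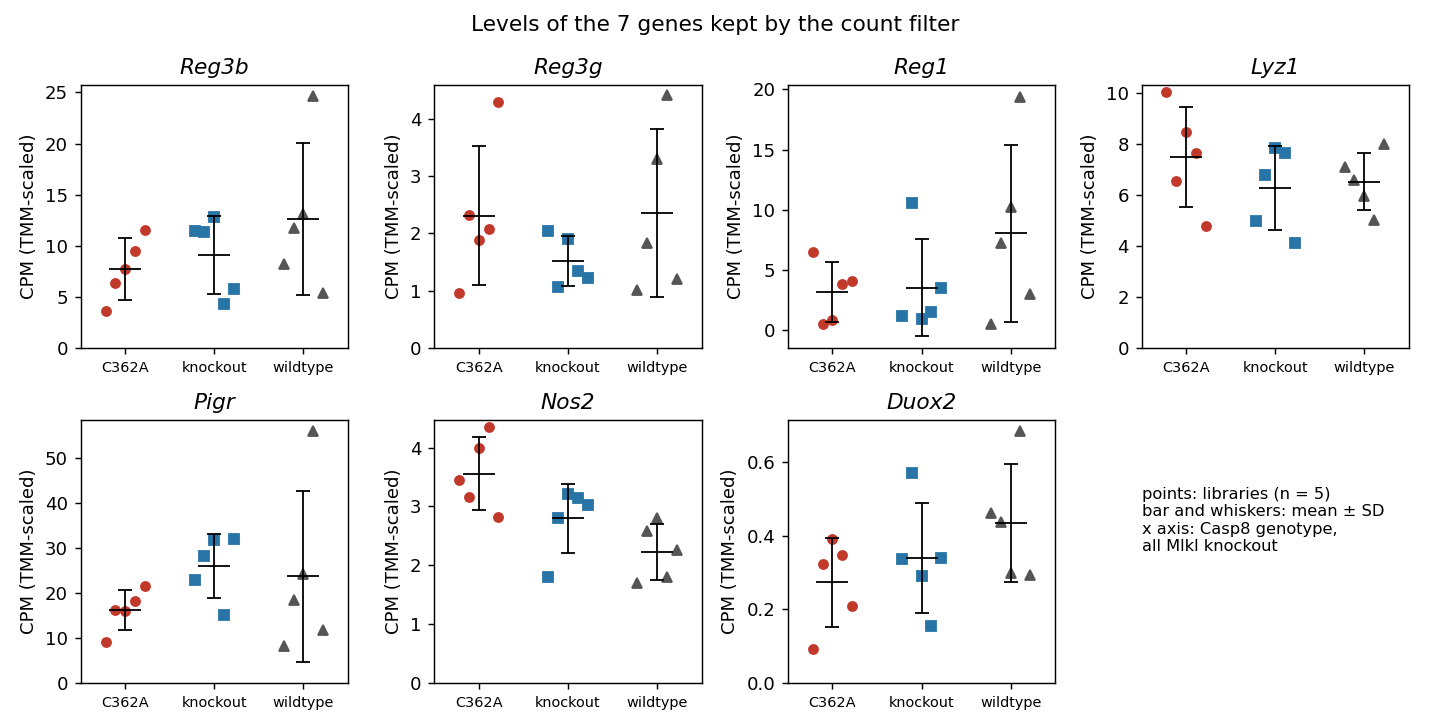
CPM (TMM-scaled, linear axes) of the 7 genes kept by the count filter, with 1 point per library, bars at the mean and whiskers of 1 SD (n = 5 per genotype). Nos2 is the gene whose C362A libraries (2.82 to 4.34 CPM) all lie above the wildtype libraries (1.71 to 2.80 CPM), and the other 6 genes overlap between all groups.

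Nos2 encodes inducible nitric oxide synthase, which makes nitric oxide in macrophages and inflamed epithelium, and it came nearest of the members to a difference between genotypes. It had 3.46, 3.16, 3.997, 4.34 and 2.82 CPM in C362A (94 to 150 reads), 1.80, 2.80, 3.21, 3.15 and 3.02 CPM in knockout (64 to 121 reads), and 1.71, 2.58, 2.80, 1.80 and 2.27 CPM in wildtype (55 to 94 reads). The C362A libraries were all above the wildtype libraries, though only just at the margin, while 4 of the 5 knockout libraries lay above every wildtype library and below the highest C362A library. The log2 fold change for C362A against wildtype was 0.67 (SE 0.19, 95% interval 0.27 to 1.07, unadjusted p = 0.00232, adjusted p = 0.285 by the quasi-likelihood test of edgeR with p-values adjusted after Benjamini-Hochberg), so the difference did not pass over all genes. For knockout against wildtype it was 0.32 (SE 0.19, -0.073 to 0.72, edgeR adjusted p = 1.0) and for C362A against knockout 0.35 (SE 0.19, -0.046 to 0.74, edgeR adjusted p = 0.398).

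The Nos2 call in C362A against wildtype turned on 1 library. Without C362A replicate 5, the lowest of its group at 2.82 CPM, the log2 fold change was 0.74 (SE 0.19) and passed with an edgeR adjusted p of 0.0314, in a fit that called 1807 of all genes. Over the other planned settings the adjusted p lay between 0.110, in DESeq2, and 0.654. Leaving out C362A replicate 4, the library with squamous transcripts, gave 0.59. The 16 macrophage and monocyte markers, all detected, summed to 306 to 377 CPM in C362A libraries, 277 to 360 CPM in knockout libraries and 245 to 361.5 CPM in wildtype, and the 15 neutrophil markers to 52.8 to 139, 39.7 to 107 and 23.3 to 62.1 CPM in the same groups. With the mean epithelium marker level as a covariate the Nos2 value was 0.67. The part that myeloid cells play in the Nos2 levels was not tested.

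Duox2 and Duoxa2 lie head to head on chromosome 2 (Duox2 at chr2:122279246-122298740, Duoxa2 at chr2:122298900-122302885) and encode the oxidase that releases hydrogen peroxide from the epithelial surface and the factor that it needs to leave the endoplasmic reticulum. Duox2 was near the floor, with 3, 12, 13, 12 and 7 reads in C362A, 12, 21, 11, 5 and 13 reads in knockout, and 16, 16, 10, 21 and 11 reads in wildtype. The groups overlapped. Its log2 fold change was -0.65 for C362A against wildtype (SE 0.39, 95% interval -1.47 to 0.17), -0.34 for knockout against wildtype and -0.31 for C362A against knockout, none of which passed (edgeR adjusted p = 0.392, 1.0 and 0.734). Without wildtype replicate 4 knockout against wildtype was -0.13, and C362A against knockout was -0.042 without knockout replicate 2.

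Duoxa2 was too low to measure, with 5, 7, 7, 3 and 5 reads in C362A, 3, 7, 4, 6 and 5 in knockout, and 13, 6, 5, 5 and 16 in wildtype. The 2 libraries with at least 10 reads were both wildtype, and the other wildtype libraries overlapped with the rest. In GENCODE transcripts 41.1% of its 50-base windows also occur in Duoxa1, on the opposite strand, and the kit does not mark strand. In RefSeq the 2 genes do not overlap: Duoxa2 ends at 122302885 and Duoxa1 starts at 122303540. The gene models behind the counts are not named, so these few reads cannot be assigned with certainty. Duoxa1 itself had reads in 6 of 15 libraries, with a median of 0. For Duox2, 6.79% of windows are shared with Duox1, the second dual oxidase, which averaged 1.77 ± 0.511 CPM in C362A libraries, 1.58 ± 0.365 CPM in knockout libraries and 1.77 ± 0.279 CPM in wildtype.

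For the 3 genes below the filter, an exact permutation test of the mean CPM, two-sided, was run in each of the 3 comparisons. The smallest of the 9 p-values was 0.127, for Duoxa2 in knockout against wildtype, where 5 against 5 libraries allow 0.00794. At these read numbers the test says little about any difference.

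Pigr encodes the receptor that takes up polymeric IgA at the base of epithelial cells and releases it into the lumen, and it was well expressed before birth. It had 9.15, 16.3, 15.9, 18.1 and 21.6 CPM in C362A libraries, 22.8, 28.2, 31.8, 15.2 and 32.0 CPM in knockout libraries, and 8.13, 18.5, 24.1, 56.0 and 11.7 CPM in wildtype. Of the 5 knockout libraries 4 were above every C362A library, and wildtype held both the lowest and the highest of the 15. The log2 fold change was -0.54 for C362A against wildtype (SE 0.44, 95% interval -1.48 to 0.40), 0.14 for knockout against wildtype (SE 0.43, -0.79 to 1.07) and -0.68 for C362A against knockout (SE 0.44, -1.62 to 0.26), none of which passed (edgeR adjusted p = 0.524, 1.0 and 0.472). Without wildtype replicate 4 the values against wildtype were 0.051 for C362A and 0.74 for knockout, and without wildtype replicate 1 the second was -0.080.

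In count, 0 of the 7 genes tested passed in any of the 3 comparisons. In C362A against wildtype, 0.0817% of all 18370 genes tested passed in edgeR. At an unadjusted p under 0.05 it was 1 of 7, Nos2, against 15.9% of all genes, and Nos2 was also the 1 of 7 whose groups did not overlap, against 1.16% of all genes. In knockout against wildtype 0 of 7 had an unadjusted p under 0.05, against 2.43% of all genes, and 0.0381% of all genes passed. In C362A against knockout 0 of 7 did, against 13.9%, and 0.0109% of all genes passed. No member had groups without overlap in the last 2 comparisons, where 0.702% and 2.85% of all genes did. DESeq2 and limma-voom also called 0 members in each comparison.

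**Figure D3:**
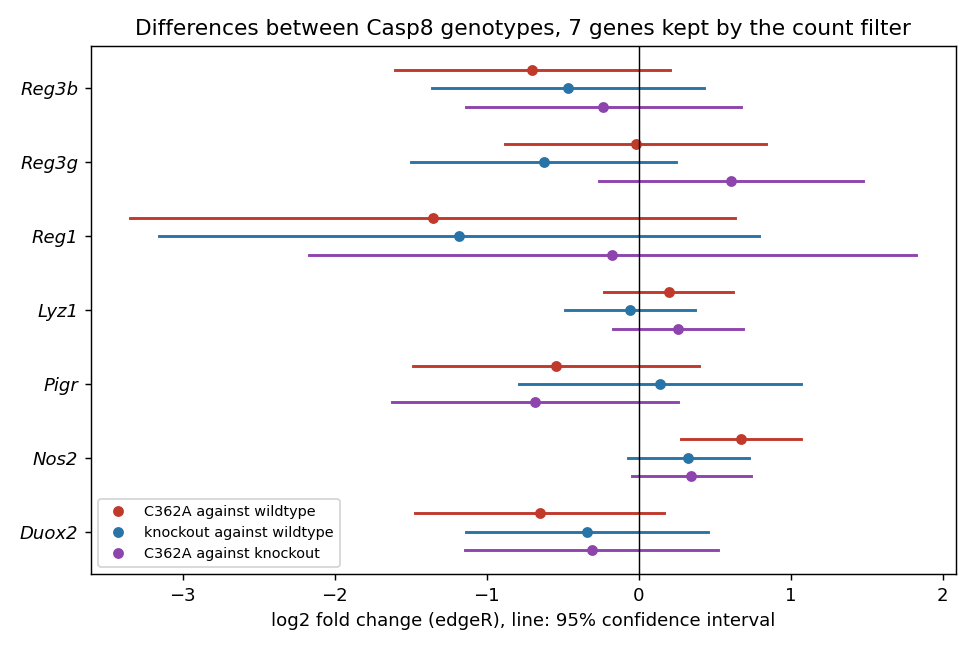
Log2 fold changes from edgeR with 95% confidence intervals for the 7 genes kept by the count filter, in 3 comparisons (C362A against wildtype, knockout against wildtype, C362A against knockout). The interval of Nos2 in C362A against wildtype, 0.27 to 1.07, is the only one of the 21 that does not cross 0, before adjustment over all genes, and the intervals of Reg1 are the widest.

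The sample ID numbers in the labels form 2 runs of consecutive numbers, one with 2 and one with 3 libraries of each genotype. The sources used here do not give what the runs stand for. In C362A against wildtype, Nos2 was higher in both runs, by 0.44 and 0.82 on the log2 CPM scale, and Reg3b was lower in both, at -0.27 and -0.85, as was Reg1, at -0.63 and -1.43. Duox2, near the floor, was also lower in both, at -0.43 and -0.75. Reg3g (0.76 and -0.44), Pigr (0.42 and -0.73) and Lyz1 (-0.21 and 0.43) had opposite signs in the 2 runs. In knockout against wildtype Reg1 (1.37 and -2.61), Pigr (1.10 and -0.047), Duox2 (0.22 and -0.71) and Lyz1 (-0.30 and 0.059) had opposite signs, and the rest did not. In C362A against knockout Reg3b (0.085 and -0.41), Reg3g (1.43 and -0.15) and Reg1 (-2.00 and 1.18) had opposite signs, and the rest did not. Nos2 was at 0.037 and 0.56 in that comparison. With the runs as a block in the edgeR fit, 0 members passed in each comparison.

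With the mean epithelium marker level as a covariate, several log2 fold changes lay nearer 0 and none passed. In C362A against wildtype Reg3b was at -0.24, Pigr at -0.15 and Reg1 at -0.63, while Reg3g was at 0.54. For knockout against wildtype Reg3b was at -0.18, Reg3g at -0.27 and Reg1 at -0.51, while Pigr was at 0.47. In C362A against knockout Reg3b was at -0.058 and Reg1 at -0.12, while Reg3g was at 0.80. Lyz1 and Duox2 in C362A against wildtype were at 0.19 and -0.67 with the covariate.

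Among the 6 measured genes, 15 pairs were compared over the 15 libraries. Reg3b followed Pigr (Pearson r = 0.72, permutation p = 0.00271, adjusted 0.0256; Spearman rho 0.675, permutation p = 0.00749, adjusted 0.0678) and Reg3g (r = 0.70, permutation p = 0.00341, adjusted 0.0256; rho 0.657, permutation p = 0.00904, adjusted 0.0678). Without C362A replicate 1 and wildtype replicate 4, the 2 libraries farthest from the median of Reg3b, r was 0.44 and 0.49. Leaving out extremes narrows the range, which by itself tends to lower r, so the drop cannot tell how far the relations rest on those libraries. Within C362A, knockout and wildtype, with 5 libraries each, r was 0.97, 0.58 and 0.90 for Pigr and 0.89, 0.44 and 0.90 for Reg3g. Lyz1 and Pigr had r of -0.63 (permutation p = 0.0112, adjusted 0.056), and the other 12 pairs had an adjusted p of at least 0.0919. The same 2 libraries are the extremes of the enterocyte marker sum, at 7754 CPM in C362A replicate 1 and 33881 CPM in wildtype replicate 4. The part of enterocyte content in these relations was not tested.

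The genes most like each measured member were sought among 15698 genes by the Pearson correlation of log2 CPM over 15 libraries after removal of genotype means, and are given as a description. For Pigr they were Mme (r = 0.98), the brush-border peptidase neprilysin, Gm8615 (0.98) and Sec16b (0.97). For Reg3b they were Sord (0.89), sorbitol dehydrogenase, Mro (0.89) and Mep1a (0.89), a meprin protease of the brush border. For Reg3g they were Sh3tc2 (0.97), Map3k21 (0.95) and Spink1 (0.95), a secreted trypsin inhibitor. For Lyz1 they were Eif2s1 (0.92), a translation initiation factor subunit, Lmod1 (0.92) and Hmga1b (0.91), and for Nos2 Klf13 (0.85), Bank1 (0.83) and Kif16b (0.82). With 15 libraries and 15698 genes, high values of r arise for any gene. These libraries share the same differences in depth and tissue makeup.

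**Figure D4:**
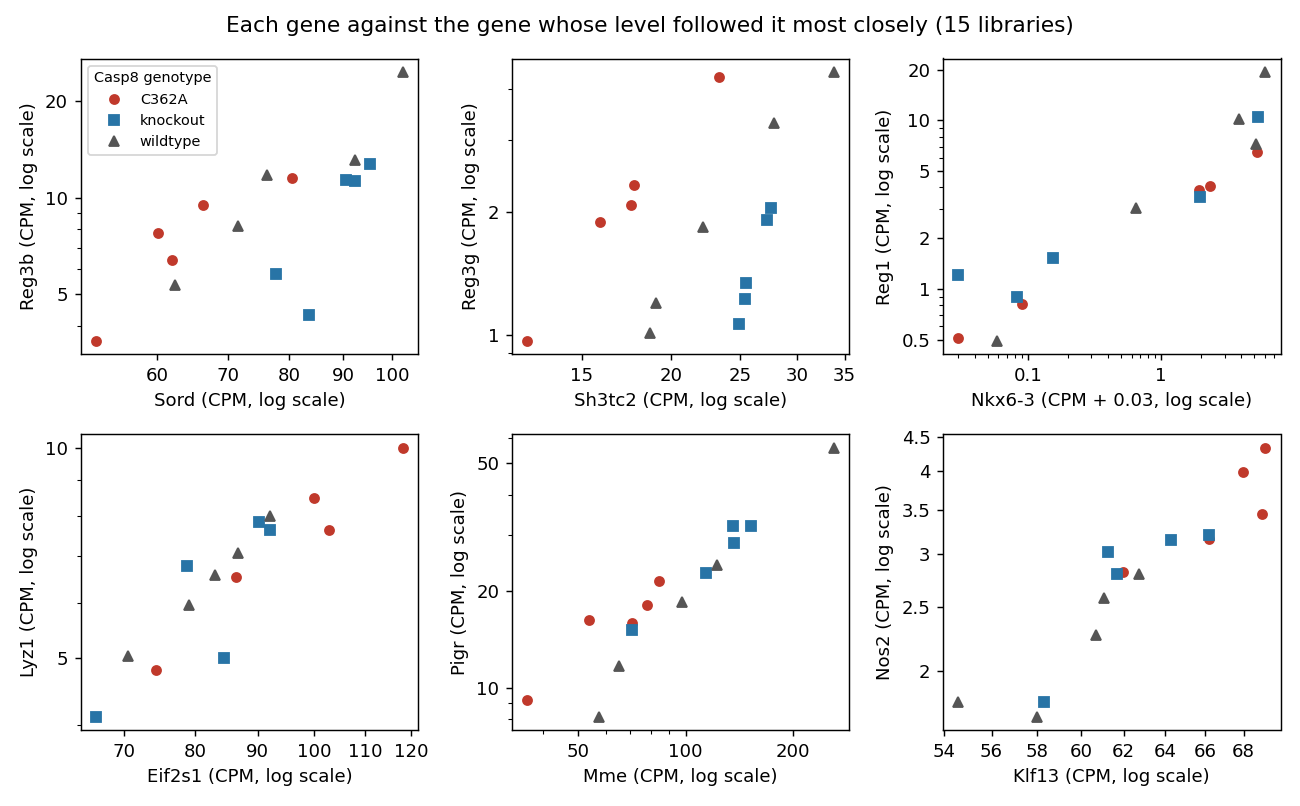
Level of each measured gene (y axis, CPM, log scale) against the gene with the most similar pattern (x axis, CPM, log scale, with 0.03 added for Nkx6-3), 1 point per library with genotype by shape and colour. The genes were chosen after removal of genotype means, so Reg3g and Sh3tc2 run in parallel within genotypes, while Reg1 rises with Nkx6-3 across all 3.

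For Reg1 the most similar genes were Nkx6-3 (r = 0.96) and Pdx1 (0.92), both homeobox genes known from the distal stomach and proximal duodenum, and Tmem50b (0.92). Nkx6-3 had 167, 0, 2, 66 and 77 reads in the C362A libraries, 0, 195, 2, 4 and 74 reads in the knockout libraries, and 1, 186, 128, 184 and 23 reads in the wildtype libraries. Within each genotype the libraries with few Nkx6-3 reads were those low in Reg1. The library highest in Reg1, wildtype replicate 4, also had the highest Nkx6-3 level at 6.01 CPM. Nkx6-3 was picked for this likeness, so the match follows from the choice. Each of the 14 stomach markers had a read in some library, though Muc5ac in only 2 of 15 and Gif and Atp4b in 4. They summed to 5.86 to 15.5 CPM in C362A libraries, 4.83 to 19.7 CPM in knockout libraries and 6.66 to 20.0 CPM in wildtype. The 18 exocrine pancreas markers each had a read in some library, though Ctrc in only 2 of 15. They summed to 151 to 434 CPM in C362A libraries, 268 to 575 CPM in knockout libraries and 207 to 432 CPM in wildtype. Spink1 alone had 119 to 334 CPM over the 15 libraries and made up a large part of this sum. Ctrb1 ranged from 0.795 to 127 CPM and Pnliprp1 from 1.51 to 114 CPM, a spread that the sum hides. The part of stomach or duodenal tissue in the Reg1 levels was not tested.

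The other genes of the same pathways were described from 8 lists, and no member of any of them passed in any comparison. Of the secreted antimicrobial genes other than the members, 22 of 42 were tested, with a median log2 fold change of -0.01 in C362A against wildtype, where that of all 18370 genes was 0.01. Some were abundant before birth: Lypd8, which keeps flagellated bacteria off the colon surface, had a median of 1378 CPM over all libraries and Dmbt1, a mucosal scavenger protein, 604 CPM. The Paneth cell genes Defa24 and Ang4 were at medians of 13.7 and 1.25 CPM, and 6 of the 42, among them Defa5, had no read in any library. Ang4, an antimicrobial ribonuclease, was at 1.59 ± 0.448 CPM in C362A and 1.02 ± 0.372 CPM in wildtype (log2 fold change 0.63, SE 0.28, edgeR adjusted p = 0.295). Of the Reg and resistin-like relatives 2 of 6 were tested: Reg4 was at 16.8 ± 2.8 CPM in C362A and 23.3 ± 9.03 CPM in wildtype (-0.47, SE 0.21), and Retnlg, a neutrophil gene, at 1.23 ± 1.1 and 0.371 ± 0.234 CPM in the same groups (1.74, SE 0.61), with edgeR adjusted p of 0.296 and 0.285. In knockout against wildtype the smallest p in the secreted list were those of Wfdc2 (-0.28, SE 0.14) and Defa17 (-0.59, SE 0.31), and in C362A against knockout those of the ribonuclease genes Ang (-0.33, SE 0.13) and Rnase4 (-0.23, SE 0.10), with edgeR adjusted p of 1.0 for the first pair and of 0.317 and 0.336 for the second.

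Around the oxidases, 12 of 14 NADPH oxidase genes were tested. The epithelial oxidase Nox1 and its organizer Noxo1 had medians of 14.6 and 13.6 CPM over all libraries. Nox1 averaged 14.5 ± 1.25 CPM in C362A libraries, 14.8 ± 1.57 CPM in knockout libraries and 15.2 ± 2.93 CPM in wildtype. The phagocyte oxidase subunits Ncf4 and Cybb had the smallest p in the list: Ncf4 was at 3.13 ± 0.322 CPM in C362A and 1.80 ± 0.464 CPM in wildtype (log2 fold change 0.80, SE 0.19, edgeR adjusted p = 0.273), and Cybb at 12.2 ± 3.12 and 7.67 ± 1.504 CPM in the same groups (0.67, SE 0.20, edgeR adjusted p = 0.285). Neither passed. Nox4 was at 14.2 ± 3.6 CPM in C362A and 24.98 ± 4.81 CPM in knockout (-0.81, SE 0.30, edgeR adjusted p = 0.317), and the GTPase gene Rac2 at 17.4 ± 4.34 and 14.5 ± 1.88 CPM in the same groups (0.26, SE 0.14, edgeR adjusted p = 0.404). The 13 tested genes for peroxidases and peroxide handling had a median of 0.02 in C362A against wildtype, with Gpx1 at -0.24 (SE 0.11) and Gpx3 at -0.63 (SE 0.34), and in C362A against knockout Sod3 was at -0.76 (SE 0.33). In knockout against wildtype Mpo was at 0.77 (SE 0.69).

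Around Nos2, all 10 genes of nitric oxide synthesis and arginine use were tested, with medians of 0.06 in C362A against wildtype, 0.07 in knockout against wildtype and -0.03 in C362A against knockout. Slc7a2, an arginine transporter, was at 16.8 ± 3.02 CPM in C362A and 12.8 ± 1.04 CPM in knockout (log2 fold change 0.39, SE 0.14, edgeR adjusted p = 0.317). Ass1, which remakes arginine from citrulline, was at 73.2 ± 27.8 CPM in C362A and 116 ± 62.0 CPM in wildtype (-0.67, SE 0.33, edgeR adjusted p = 0.331). The constitutive synthase Nos1 was at 17.5 ± 3.18 CPM in C362A libraries, 17.5 ± 1.89 CPM in knockout libraries and 15.4 ± 2.87 CPM in wildtype. Gch1, the first enzyme of tetrahydrobiopterin synthesis, had a log2 fold change of -0.36 (SE 0.15) in C362A against knockout, and Ddah1 one of 0.13 (SE 0.09) in knockout against wildtype, with edgeR adjusted p of 0.326 and 1.0.

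Around Pigr, 5 of 8 genes of immunoglobulin transport and IgA were tested. Fcgrt, the neonatal Fc receptor that carries maternal IgG, was at 304 ± 118 CPM in C362A libraries, 579 ± 73.7 CPM in knockout libraries and 609.7 ± 404 CPM in wildtype (log2 fold change -1.003, SE 0.38, for C362A against wildtype and -0.93, SE 0.38, for C362A against knockout), and did not pass in either (edgeR adjusted p = 0.285 and 0.324). Jchain, the chain that joins IgA units, had 0 to 7 reads per library, and these data do not measure antibody protein. The B-lineage gene Cd79b was at 2.84 ± 0.326 CPM in C362A and 2.19 ± 0.750 CPM in knockout (0.37, SE 0.21, edgeR adjusted p = 0.418). The B-cell survival factor gene Tnfsf13 was at -0.47 (SE 0.24) in C362A against wildtype, and Tnfsf13b (0.29, SE 0.32) and Mzb1 (-0.19, SE 0.34) had the smallest p of this list in knockout against wildtype.

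Of the 35 genes upstream, cytokines, their receptors and Toll-like receptor signalling, 34 were in the files and 26 were tested. Levels of the cytokine genes differed widely. Il22 had 1 read in 1 library, Il17a none, and Ifng and Il6 at most 3 and 6 reads per library. Il18, which encodes a cytokine made by epithelium, had 230 to 627 reads (median 12.4 CPM), and Il1b, made by myeloid cells, had 7 to 89 reads (median 1.17 CPM). Il11 and Il23a were low but kept by the filter, at medians of 13 and 12 reads. Receptor genes were present, with medians of 109.6 CPM for Il22ra1, 124 CPM for Il10rb and 15.1 CPM for Il17ra. Il22ra1, the epithelial part of the IL-22 receptor, was at 99.3 ± 6.59 CPM in C362A libraries, 124 ± 8.83 CPM in knockout libraries and 114 ± 12.3 CPM in wildtype. It had the smallest p of the list in C362A against knockout (log2 fold change -0.32, SE 0.08, edgeR adjusted p = 0.317) and did not pass, nor did Il10rb, which encodes the shared second chain (-0.33, SE 0.12, edgeR adjusted p = 0.317). Il6st, the signal-transducing chain for IL-6, was at 128 ± 11.1 CPM in C362A and 107 ± 10.1 CPM in wildtype (0.26, SE 0.08) and Tlr9 at 1.65 ± 0.491 and 0.930 ± 0.257 CPM in the same groups (0.83, SE 0.30), both with an edgeR adjusted p of 0.285. In knockout against wildtype Tlr4 was at 0.48 (SE 0.19), with an edgeR adjusted p of 1.0.

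The 18 transcription factors of secretory and other epithelial cells were all tested and none passed. In C362A against wildtype their median log2 fold change was -0.07, with Sox4 at 0.35 (SE 0.13) and Cdx1 at -0.21 (SE 0.10), and in C362A against knockout it was 0.07, with Sox9 at 0.19 (SE 0.08) and Klf5 at 0.20 (SE 0.09). In knockout against wildtype it was -0.09, with Sox9 at -0.18 (SE 0.08) and Klf4 at -0.26 (SE 0.12). The median of all genes in these comparisons lay between 0.00 and 0.01. Of the 11 marker lists, called members were found in 3: Adgre1 (macrophages, log2 fold change 0.75, SE 0.13), Mmp9 (neutrophils, 1.23, SE 0.16) and Il2rg (lymphoid cells, 0.75, SE 0.13) were higher in C362A than in wildtype, and Mmp9 (1.004, SE 0.16) in knockout than in wildtype, with edgeR adjusted p of 0.0361, 0.00201, 0.0201 and 0.0276 in this order. Over all genes tested, 0.0817% passed in C362A against wildtype and 0.0381% in knockout against wildtype. Of the 14 enterocyte markers tested, 1 had a positive log2 fold change in C362A against wildtype (median -0.61), against 51.4% of all genes. At an unadjusted edgeR p under 0.05, 9 of the 14 were lower, against 1432 of all 18370 genes, and 0 passed. In C362A against knockout 12 of the 14 were lower at that p, against 1362 of 18370, and 0 passed.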

How the data were processed

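RNA from E16.5 mouse intestine was measured in 15 libraries, polyA-selected from 0.5 ug of total RNA with a TruSeq v2 kit and read as single ends of 50 bp, per the labels' protocols. The submitters' processing notes name the aligner GSNAP and the build GRCm38, with no version. The sources used here do not name the gene models. Per the file headers, each deposited count is the number of reads with a unique alignment in a gene model. Also per those headers, the authors adjusted the deposited RPKM by library size factors. RPKM was used only to compare levels between genes and in 2 alternatives. Entrez IDs were named from RefSeq (GRCm38.p6), which held 31049 of 36528 IDs.

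Counts were tested with edgeR 4.0.16 (R 4.3.3): TMM scaling, filterByExpr at 10 reads and a total of at least 15, and the robust quasi-likelihood test on 1 fit of all 15 libraries. P-values were adjusted by Benjamini and Hochberg over 18370 genes, and 0.05 was the threshold. CPM values are counts per 1e+06 counts of TMM-scaled library size, with mean ± SD over 5 libraries. Genes kept by the filter with a median under 30 reads were called near the floor. Genes below the filter were tested by exact permutation. Correlations used 100000 permutations. Floors of 3 counts and the intervals cover counting error or the spread between libraries only. The procedure was tested on simulated counts. Sequences were compared with Python 3.11.15 and Biopython 1.88. Libraries were numbered in accession order, and every pair within a genotype differed by far more than sampling noise (chi-square per gene 10.7 to 138 over 30 pairs), so none was counted as a repeat run of the same library. That check cannot show that each library came from a separate embryo. Y-linked transcripts were found in 2 C362A, 4 knockout and 4 wildtype libraries.

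The members, the 8 pathway lists and the 11 marker lists (298 entries, 297 found) were chosen with earlier results of these data known. The rule named all 10 members, from each pathway list any gene that passed and the 2 genes with the smallest p in each comparison, the 3 genes most similar to each measured member with a mean of at least 1 CPM, and Casp8 and Mlkl. A gene that the rule named is not reported here. All other genes named were chosen after their values were seen. The alternatives were RLE scaling, library totals, no filter, a filter of 5 CPM, DESeq2 1.42.0, limma-voom (limma 3.58.1), no robust estimates, fits of 2 groups, limma on log2(RPKM + 1) and log2(RPKM + 0.1), a block for runs of sample ID numbers, covariates for epithelium and Y-linked levels, a threshold of 0.01, and each library left out. RLE scaling and library totals for the genes below the filter were added after seeing the data.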

Additional observations from a re-analysis of the deposited data

Results flagged for a closer look

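In groups of 5 libraries, 21 group and gene combinations were examined for a library far from the others, and 2 were found. Chance gives about 1 in 20 such groups. Reg1 in knockout replicate 2 was at 10.5 CPM, where the next highest knockout library was at 3.51 CPM, a gap of 0.729 of the whole range of that group. Nos2 in knockout replicate 1 was at 1.80 CPM, where the next lowest knockout library was at 2.80 CPM, a gap of 0.712 of the range. The critical gap for 5 libraries is 0.71, so both lie close to it. The knockout library high in Reg1 also had 195 Nkx6-3 reads and a stomach marker sum of 19.7 CPM, the highest of its group for both. Nkx6-3 was picked because it follows Reg1 in these same libraries, so its high level there is not separate evidence. Without it, Reg1 in C362A against knockout was 0.81 on the log2 scale, against -0.17 with it, and in knockout against wildtype -2.16, against -1.18 with it. Without knockout replicate 1, Nos2 in knockout against wildtype was 0.44, against 0.32 with it, and passed in neither.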

How the results depend on the processing

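Of 579 values of the 7 tested members under other settings, 558 kept their sign and their side of the threshold, 20 changed sign and 1 came to pass. The count of members that passed stayed at 0 except in C362A against wildtype, where leaving out 1 library each gave 0 to 1: the 1 was Nos2 without C362A replicate 5. Reg3g in C362A against wildtype, -0.019 in the main test, was 0.021 with library totals, 0.085 with limma-voom, 0.017 with log2(RPKM + 1), 0.039 with log2(RPKM + 0.1), 0.54 with the epithelium covariate and 0.041 with the Y-linked covariate, and -0.36 to 0.33 with 1 library left out. With 1 library left out, Pigr ranged from -0.76 to 0.051 in C362A against wildtype and from -0.080 to 0.74 in knockout against wildtype, Lyz1 from -0.15 to 0.060 in knockout against wildtype, and Reg1 from -0.62 to 0.81 in C362A against knockout. All of these signs belong to differences that did not pass. Nos2 in C362A against wildtype stayed positive in all settings and was 0.26 with log2(RPKM + 1), a scale that understates changes of low genes.

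Among all genes, the 15 called in C362A against wildtype became 54 with DESeq2, 1 with the 5 CPM filter, 7 with the Y-linked covariate, 7 at a threshold of 0.01, and 7 to 1807 with 1 library left out. The 7 of knockout against wildtype became 13, 2, 3, 1 and 1 to 8 in the same order, and 1 with only the 2 groups. The 2 of C362A against knockout became 26 with DESeq2, 4 with only the 2 groups, 5 and 4 with the RPKM scales, and 2 to 805 with 1 library left out. The cause was not tested. None of the 60 group levels moved by more than 1 SD under the other scalings. Genes with under 5 CPM have no value under the 5 CPM filter, and libraries were not left out for the 3 genes below the main filter. No paired analysis was possible because the labels give no replicate numbers, and those used here follow accession order. Depth limits Reg3a, Retnlb, Duoxa2 and Duox2, where a few reads decide each level.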
